A study of Mus musculus with 6 samples.

Results

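The kidney clears many drugs, toxins and metabolic end products by moving them through the cells of the proximal tubule, and the organic anion transporters of the SLC22 family are central to this route. Carriers on the blood side take up organic anions in exchange for dicarboxylates, and carriers on the luminal side release anions into the urine or, in the case of urate, bring them back. Most of these genes are used strongly by the proximal tubule, which is also a main site of cisplatin injury. The 10 genes described here are the organic anion transporters Slc22a6, Slc22a7, Slc22a8, Slc22a19, Slc22a28, Slc22a29 and Slc22a30, the urate carriers Slc22a12 and Slc22a13, and Slco1a1, an uptake carrier of the organic anion transporting polypeptide family. They were chosen by name from the 54532 genes in the deposited tables. The rule uses no measured value, but the list was drawn up with earlier results of these data known, so it was not chosen blind to them.

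Kidney RNA was sequenced from 3 WT mice (replicates 1, 2 and 3) and 3 Trpm2-/- mice (replicates 1, 2 and 4), all of them taken 72 h after cisplatin at 18 mg/kg. Per the labels the mice were C57BL/6J animals of 6 to 8 weeks, whereas the study's methods give an older age range, male sex and a single intraperitoneal injection. Trpm2 encodes a calcium-permeable cation channel, and the Trpm2-/- mice lack exons 17 and 18 in every cell of the body. The WT mice were purchased and the Trpm2-/- line came from another institution, so genotype and origin of the mice cannot be told apart. No kidney without cisplatin was analysed here, and every difference below is one between genotypes after cisplatin.

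The libraries held between 14053307 and 17150089 counts. The count over the whole Trpm2 gene was 5, 5 and 27 in WT mice and 10, 16 and 20 in Trpm2-/- mice, which is too low for a check of the genotype, and such a count also covers the exons that remain in the deleted allele. Transcripts of the mitochondrial genome made up 4.43 to 4.72% of counts in WT kidneys and 7.91 to 11.04% in Trpm2-/- kidneys. The 12 markers of proximal tubule cells were all detected, which fits the labelled tissue, and 11 of them were lower in Trpm2-/- kidneys, as described with the transporters below.

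All 10 transporters were lower in Trpm2-/- kidneys. All 10 passed the filter on low counts, Slc22a29 through its WT libraries. Each of them passed the edgeR quasi-likelihood test at an adjusted p under 0.05, against a background of 7.28% of the 15816 genes tested that were called lower and 4.74% that were called higher. Each also passed the threshold in the study's methods, an absolute log2 fold change above 1 with an unadjusted p under 0.05, which 4.1% of genes passed in the lower and 3.5% in the higher direction. For each transporter all 3 Trpm2-/- libraries lay below all 3 WT libraries, which held for 16.8% of tested genes. The median log2 fold change of the 10 was -1.86, compared with 0.02 over all genes tested. Together they made up 0.110, 0.0976 and 0.136% of all counts in WT replicates 1, 2 and 3, and 0.0307, 0.0268 and 0.0555% in Trpm2-/- replicates 1, 2 and 4.

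**Figure D1:**
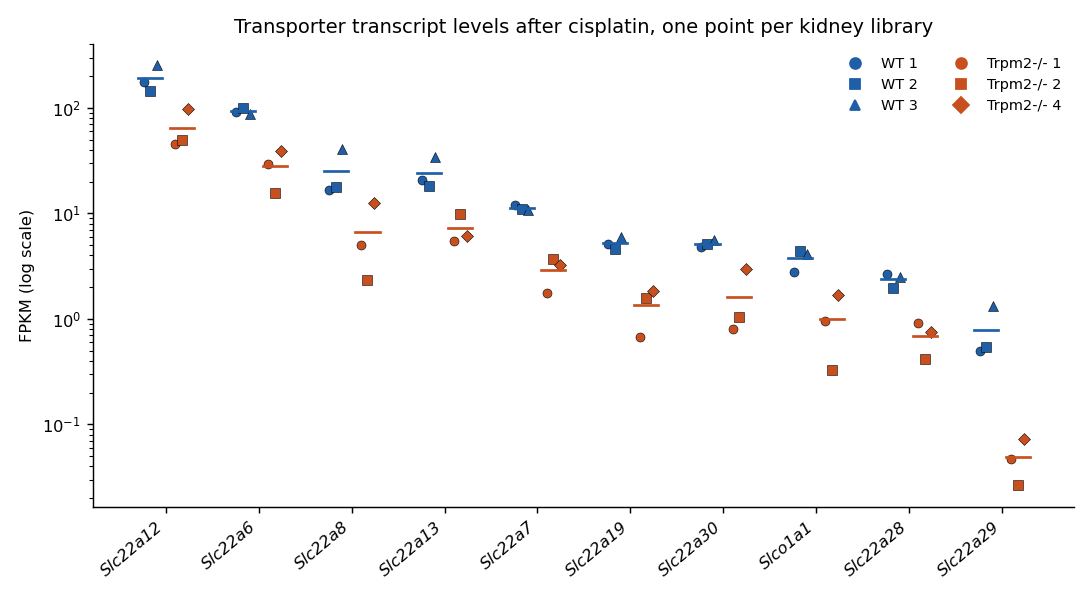
Level of each transporter in each library, in FPKM (fragments scaled to gene length and library size) on a log axis. Blue symbols are WT mice, orange symbols are Trpm2-/- mice, the symbol shape gives the replicate number and the line is the mean of 3 mice. In each gene the 3 orange symbols lie below the 3 blue ones, and the order of the genes from Slc22a12 at the top to Slc22a29 at the bottom differs little between genotypes.

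Since FPKM is scaled to gene length, it allows levels to be compared between genes. In WT kidneys Slc22a12 was the most abundant transporter at 192 ± 57.0 FPKM (SD, n = 3), followed by Slc22a6 at 92.9 ± 6.12 FPKM. Slc22a8 at 25.2 ± 13.7 FPKM and Slc22a13 at 24.4 ± 8.86 FPKM overlapped. Slc22a7 came next at 11.3 ± 0.695 FPKM, and below it Slc22a19 at 5.24 ± 0.709 FPKM and Slc22a30 at 5.15 ± 0.415 FPKM overlapped. The lowest levels were those of Slco1a1 at 3.77 ± 0.875 FPKM, Slc22a28 at 2.37 ± 0.366 FPKM and Slc22a29 at 0.788 ± 0.460 FPKM.

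In Trpm2-/- kidneys Slc22a12 at 64.1 ± 28.4 FPKM and Slc22a6 at 28.2 ± 11.98 FPKM were again the highest, and Slc22a28 at 0.693 ± 0.252 FPKM and Slc22a29 at 0.0489 ± 0.0234 FPKM the lowest. From the third to the ninth place each gene overlapped with the next, so the exchanges of place between Slc22a8 and Slc22a13 and between Slc22a19 and Slc22a30 lay within the spread of the mice. Slc22a12 and Slc22a6 gave 52.3 and 26.4% of the summed FPKM of the 10 genes in WT kidneys, and 55.9 and 24.9% in Trpm2-/- kidneys. The total of this group thus fell while the mean shares of its 2 main genes were similar. Between mice the shares varied. The ratio of Slc22a12 to Slc22a6 in FPKM was 1.94, 1.45 and 2.90 in WT replicates 1, 2 and 3. In Trpm2-/- replicates 1, 2 and 4 the ratio was 1.53, 3.24 and 2.46.

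Slc22a6 (ENSMUSG00000024650, chr19:8617996-8628299, plus strand) encodes OAT1, the carrier at the blood side of the proximal tubule through which para-aminohippurate and many drugs enter the cell. Its CPM (counts scaled to library size by TMM) was 416, 459 and 407 in WT mice and 136, 71.1 and 178 in Trpm2-/- mice. The WT mice were close to each other, with a coefficient of variation of 6.48%, whereas Trpm2-/- mice varied by 42.0% and none of them came near the lowest WT value. The mean was 3.33 times lower, with a log2 fold change of -1.74 (SE 0.281) and an adjusted p of 0.00563 in the edgeR quasi-likelihood test.

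Slc22a8 (ENSMUSG00000063796, chr19:8591254-8611834, plus strand) encodes OAT3, which shares the blood side of the cell with OAT1 and carries larger anions such as steroid sulfates as well. Its gene ends 6161 bases before that of Slc22a6. Its CPM was 65.7, 71.1 and 163 in WT mice and 19.7, 9.22 and 48.9 in Trpm2-/- mice. WT replicate 3 and Trpm2-/- replicate 4 stood well above the others of their genotype, which was not so for Slc22a6 in WT replicate 3. The ratio of Slc22a6 to Slc22a8 in FPKM was 5.47, 5.58 and 2.15 in WT replicates 1, 2 and 3, and 5.95, 6.67 and 3.15 in Trpm2-/- replicates 1, 2 and 4.

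With this spread, Slc22a8 had the largest adjusted p of the group in the edgeR quasi-likelihood test, 0.0469, at a log2 fold change of -1.95 (SE 0.544). The call was lost in 9 of 17 alternatives, with adjusted p up to 0.171. These included the DESeq2 Wald test (adjusted p of 0.0647) and the fits without any one of WT replicates 1, 2 and 3 (0.0531, 0.0776 and 0.171) or of Trpm2-/- replicates 1 and 2 (0.145 and 0.0696). The direction stayed the same in each of them.

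Slc22a7 (ENSMUSG00000067144, chr17:46432183-46438457, minus strand) encodes OAT2, a carrier of organic anions and of nucleotide-related compounds. It was measured at 28.8, 26.6 and 25.7 CPM in WT mice and at 4.22, 8.81 and 7.72 CPM in Trpm2-/- mice. The lowest WT value was 2.92 times the highest Trpm2-/- value, the widest gap in the group after Slc22a29. The log2 fold change of -1.97 (SE 0.253) had an adjusted p of 0.00263 in the edgeR quasi-likelihood test, the smallest of the 10.

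The urate carriers were the most and the fourth most abundant members in WT kidneys. Slc22a12 (ENSMUSG00000061742, chr19:6535845-6543019, minus strand) encodes URAT1, which returns urate from the tubular lumen to the cell. Its CPM was 450.4, 373 and 659 in WT mice and 116, 129 and 245 in Trpm2-/- mice. The mean was 3.03 times lower, the smallest decrease of the group, with a log2 fold change of -1.60 (SE 0.307, edgeR adjusted p of 0.0111).

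Of the 75-base windows in Slc22a12 transcripts, 26.05% also occur in transcripts of Nrxn2 on the opposite strand, and the strandedness of the libraries is not given in the sources used here. Nrxn2 had 344, 417 and 260 counts in WT mice and 316, 435 and 215 in Trpm2-/- mice. Its counts were thus far fewer than those of Slc22a12, which had 5807 to 10745 counts in WT and 1888 to 3938 in Trpm2-/- mice, and the genotypes overlapped.

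Slc22a13 (ENSMUSG00000074028, chr9:119192974-119209098, minus strand) encodes OAT10, which exchanges urate and nicotinate at the luminal side. It was measured at 47.1, 41.4 and 79.3 CPM in WT mice and 12.5, 22.7 and 13.9 CPM in Trpm2-/- mice. WT replicate 3 was again the highest WT mouse, but in Trpm2-/- mice the highest was replicate 2 rather than replicate 4. The log2 fold change was -1.77 (SE 0.291, edgeR adjusted p of 0.00578). The pseudogene Slc22a13b-ps shares 28.7% of the 75-base windows of Slc22a13 but had only 5 to 25 counts per library.

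Slc22a19, Slc22a28, Slc22a29 and Slc22a30 lie on the minus strand of chromosome 19 in a stretch of SLC22 genes, chr19:7673061-8628299, that ends with Slc22a8 and Slc22a6. Slc22a19 encodes OAT5, a luminal exchanger of steroid sulfates and of the mould toxin ochratoxin A. The other 3 are its rodent relatives. The stretch from Slc22a19 to Slc22a6 holds 13 annotated genes, of which 8 belong to the SLC22 family. Of these, 7 passed the filter on low counts and 6 were called lower. Slc22a26, which is not among the 10, had 51, 79 and 57 counts in WT and 8, 23 and 29 in Trpm2-/- mice, a log2 fold change of -1.60 that missed the threshold (edgeR adjusted p of 0.0539), and Slc22a27 had 11 counts in all libraries together and was not tested.

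Reads can be split between such relatives where their transcripts are the same. Slc22a28 shared 44.2% of its 75-base windows with Slc22a30, and Slc22a30 shared 25.33% with Slc22a28, so the values of these 2 genes are uncertain one by one. Slc22a29 shared 11.78% with Slc22a27, and Slc22a19 only 0.523% with any other gene. At the length of 150 bases the share of Slc22a28 in Slc22a30 was still 28.46%.

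The likeness extends to the bases before their start sites. Between the 250 bases upstream of the RefSeq start site, Slc22a28 and Slc22a30 were identical at 97.5% of 244 aligned bases, Slc22a29 and Slc22a30 at 82.6%, Slc22a28 and Slc22a29 at 81.7%, and Slc22a19 at 68.4 to 68.8% with the other 3. All 10 transporters fell, so the decrease does not set these 4 apart. Factors of the HNF4 family are known to act on SLC22 promoters in the proximal tubule. The sequences below, from RefSeq on GRCm38.p6, are those of the 4 transporters in which a match to the HNF4 letters was found. Each starts 140 bases before the start site and ends at the base before it, except that the last 6 bases are left out for Slc22a30, where the gene of the deposited table begins. Capitals mark a match to the HNF4 letters CAAAGTCCA with up to 1 mismatch, searched on both strands. All are written in the direction of the gene, the minus strand of the genome.
Slc22a19, chr19:7711311-7711450: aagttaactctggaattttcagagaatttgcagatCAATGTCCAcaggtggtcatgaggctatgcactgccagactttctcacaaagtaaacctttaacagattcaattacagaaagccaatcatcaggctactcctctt
Slc22a28, chr19:8131983-8132122: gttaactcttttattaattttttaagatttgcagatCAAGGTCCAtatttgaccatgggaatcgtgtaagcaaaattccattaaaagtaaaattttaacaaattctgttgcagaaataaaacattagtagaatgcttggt
Slc22a29, chr19:8218901-8219040: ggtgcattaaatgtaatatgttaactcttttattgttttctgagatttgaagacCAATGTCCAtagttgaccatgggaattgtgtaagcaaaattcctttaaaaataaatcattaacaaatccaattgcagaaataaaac
Slc22a30, chr19:8405112-8405245: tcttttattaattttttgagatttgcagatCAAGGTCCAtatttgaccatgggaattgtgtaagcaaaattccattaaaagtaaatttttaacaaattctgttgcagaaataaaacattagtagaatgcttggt

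Over the 250 upstream bases, the HNF4 letters were matched in the 4 genes shown, of 9 transporters with an entry in the table, and in 7.05% of all 32851 promoters searched. The 4 sequences resemble each other, closely so for Slc22a28 and Slc22a30 and least for Slc22a19, so they are not independent observations. Slc22a7 has no entry in the table. The letters TATAAA, searched over the same bases without a mismatch, were found in 1 of the 9 transporters and in 12.4% of promoters.

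Such a match is a description of the letters, not a bound site. Hnf4a was at 385, 432 and 429 CPM in WT mice and 371, 303 and 214 CPM in Trpm2-/- mice (log2 fold change -0.49, edgeR adjusted p of 0.135), which did not pass the test. For Hnf4a no Trpm2-/- mouse reached the lowest WT mouse, which held for 16.8% of genes tested. Hnf4g was at 3.76, 2.57 and 2.76 CPM in WT mice and 6.24, 4.30 and 5.23 CPM in Trpm2-/- mice. Its log2 fold change of 0.79 did not pass the test either (edgeR adjusted p of 0.109). Its Trpm2-/- mice all lay above the WT mice, as for 16.7% of genes tested. A part of either gene in the transporter levels was not tested.

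Slc22a19 (ENSMUSG00000024757, chr19:7673061-7711310) had 518, 442 and 608 counts in WT mice and 68, 142 and 181 in Trpm2-/- mice. In CPM this was 3.89 times lower, with a log2 fold change of -1.96 (SE 0.312, edgeR adjusted p of 0.00536). Slc22a30 (ENSMUSG00000052562, chr19:8335371-8405111) had 297, 304 and 352 counts in WT mice and 50, 59 and 180 in Trpm2-/- mice. Trpm2-/- replicate 4 thus stood apart from the other 2, and the WT mice lay within 1.18 times of each other in CPM. The log2 fold change of Slc22a30 was -1.70 (SE 0.411, edgeR adjusted p of 0.0287), and its call was lost in 5 of 17 alternatives, namely without any one of WT replicates 1, 2 and 3 or of Trpm2-/- replicates 1 and 2, with adjusted p of 0.0531 to 0.0926.

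Slc22a28 (ENSMUSG00000063590, chr19:8062209-8131982) was found at 99, 70 and 93 counts in WT mice and 34, 14 and 27 in Trpm2-/- mice, with a log2 fold change of -1.78 (SE 0.349, edgeR adjusted p of 0.0122), and missed the threshold without WT replicate 3 (0.0550). Slc22a29 (ENSMUSG00000075044, chr19:8160165-8218900) had 21, 22 and 56 counts in WT mice and 2, 1 and 3 counts in Trpm2-/- mice. Its Trpm2-/- libraries were at or under the floor of 3 counts, where the size of a ratio is poorly known. The ratio of the summed counts, 99 to 6, corrected for library size, was 16.1 with an exact 95% interval of 7.16 to 45.1, which covers counting error only. The fitted log2 fold change was -3.93 (SE 0.644, edgeR adjusted p of 0.00578).

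The counts of Slc22a19, Slc22a26, Slc22a27, Slc22a28, Slc22a29 and Slc22a30 were also summed. Reads assigned to the wrong gene among them stay in such a sum. How reads that match several genes were counted is not given in the sources used here. Any shared reads left out of the counts would be missing from the sum as well. The sum was 989, 917 and 1171 counts in WT mice and 164, 239 and 421 counts in Trpm2-/- mice. Its log2 fold change was -1.87 (SE 0.288, edgeR adjusted p of 0.00475), and it was called in each alternative in which it was fitted, including the 6 fits without one mouse.

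Slco1a1 (ENSMUSG00000041698, chr6:141907282-141946962, minus strand) encodes an uptake carrier of steroid conjugates and bile acids on the luminal side. It was measured at 16.7, 26.5 and 25.1 CPM in WT mice and 5.75, 1.98 and 10.03 CPM in Trpm2-/- mice. Its Trpm2-/- mice spanned 5.06 times from the lowest to the highest, against 1.59 times in WT mice. The log2 fold change was -1.93 (SE 0.450, edgeR adjusted p of 0.0243), and the call was lost in 3 of 17 alternatives, without WT replicate 2 (0.0845), WT replicate 3 (0.0795) or Trpm2-/- replicate 1 (0.0789).

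**Figure D2:**
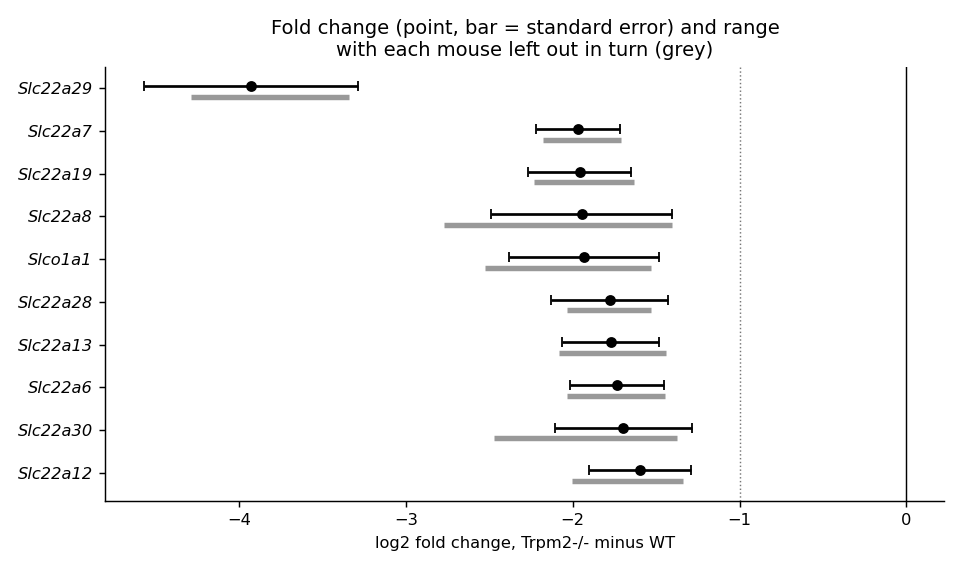
Log2 fold change of each transporter, Trpm2-/- minus WT. The black point is the edgeR estimate from all 6 mice, its bar is the standard error, and the grey bar spans the estimates of the 6 fits that each leave out 1 mouse. The dotted line marks -1, the fold change in the study's threshold, and no grey bar reaches it; Slc22a8, Slc22a30 and Slco1a1 have the longest grey bars, and Slc22a29 lies apart at -3.93.

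Across the mice, WT replicate 3 was the highest of its genotype for 6 of the 10 transporters and Trpm2-/- replicate 4 for 7 of them. Trpm2-/- replicate 4 was the lowest of its genotype for none, and replicates 1 and 2 were the lowest for 5 each. That library also had the highest summed level of the 5 podocyte markers in its genotype, 509.8 CPM against 147 and 172 CPM in the others and 130.4 to 173 CPM in WT, and of the 5 endothelial markers, 183 CPM against 51.8 and 55.5 CPM in the others and 77.3 to 111 CPM in WT. None of the podocyte or endothelial markers was called in either direction. Without Trpm2-/- replicate 4 all 10 transporters were called lower, and without WT replicate 3 the number was 6 of 10.

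The 12 markers of the proximal tubule fell along with the transporters. Of this list 11 were called lower and 0 higher, beside 7.28% and 4.74% of all genes tested. The summed level of the 12 markers was 11490 to 13267 CPM in WT kidneys and 3844 to 4831 CPM in Trpm2-/- kidneys, a ratio of 2.78. Among them Slc34a1, the phosphate carrier, had a log2 fold change of -2.73 and Fbp1, an enzyme of glucose synthesis, one of -1.98, whereas Lrp2, the endocytic receptor megalin, had one of -0.76. Gatm was not called (-0.24). In bulk kidney RNA, fewer proximal tubule cells and less transporter RNA per cell cannot be told apart.

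Of the 7 markers of injured tubule 2 were called higher, namely Krt20 (log2 fold change 0.79) and Sox9 (1.16), beside 4.74% of all genes tested. All 7 had log2 fold changes above 0, from 0.23 to 1.16, with a median of 0.51. The summed level of the 7 was 16853 to 18769 CPM in WT kidneys and 18679.8 to 26816 CPM in Trpm2-/- kidneys. Spp1, the marker with the smallest change, weighed most in this sum, with means of 12595 CPM in WT and 14729 CPM in Trpm2-/- mice. The kidney injury marker Havcr1 was at 1233 ± 139 CPM in WT mice and 1751 ± 178 CPM in Trpm2-/- mice, which missed the threshold (0.51, edgeR adjusted p of 0.0747). Liver markers were checked since Slc22a7 and Slco1a1 are also liver genes. Of 6 such markers Cyp2c29 was at 0 counts in all libraries, 1 of the 5 tested was lower, and their summed level was 270.3 to 378 CPM in WT and 164 to 400.0 CPM in Trpm2-/- kidneys. The part of any of these lists in the transporter differences was not tested.

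**Figure D3:**
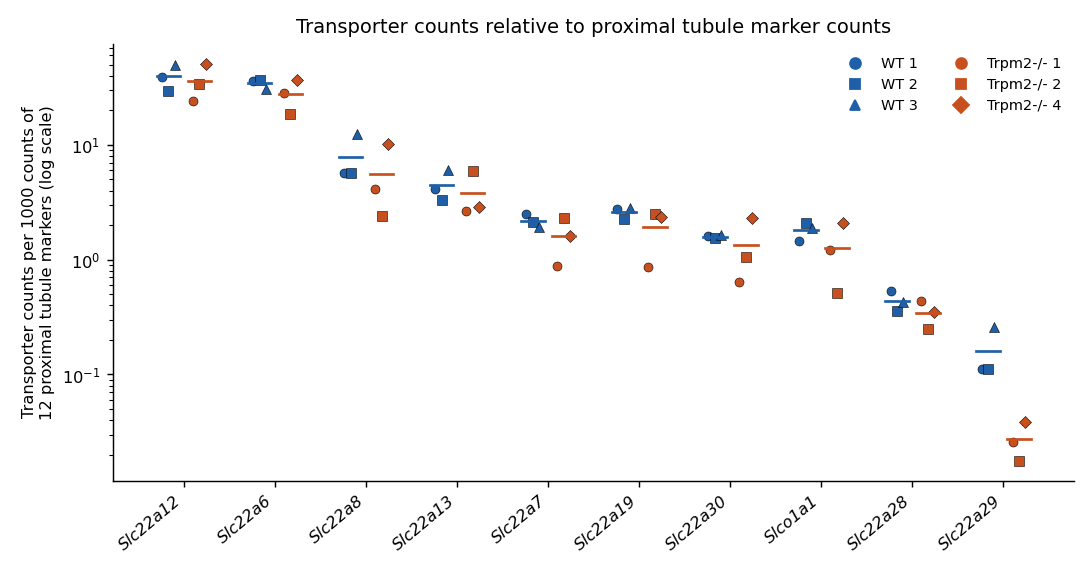
Counts of each transporter per 1000 summed counts of 12 proximal tubule markers in the same library, on a log axis, with blue symbols for WT mice, orange symbols for Trpm2-/- mice and lines for the means. The genotypes overlap for 9 transporters, and the 3 orange symbols of Slc22a29, which rest on 1 to 3 counts each, lie below the blue ones.

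To set the transporters against the segment they belong to, each count was divided by the summed count of the 12 markers. On this scale 9 of the 10 transporters overlapped between genotypes, with WT means 1.09 (Slc22a12) to 1.43 (Slco1a1) times those of Trpm2-/- mice and exact two-sided permutation p of 0.3 to 0.8. Slc22a12 was at 39.2, 29.6 and 49.7 per 1000 marker counts in WT mice and 24.2, 33.5 and 50.8 in Trpm2-/- mice. Slc22a6 was at 36.2, 36.4 and 30.7 in WT mice and 28.4, 18.5 and 36.9 in Trpm2-/- mice. For both genes the highest of the 6 libraries was now Trpm2-/- replicate 4.

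Slc22a29 was at 0.113, 0.112 and 0.259 per 1000 marker counts in WT mice and 0.0256, 0.0178 and 0.0387 in Trpm2-/- mice. These Trpm2-/- values rest on 6 counts in all, at or under the floor in each library, so the lack of overlap for this gene is a description of values too low to measure in one genotype. The smallest exact permutation p that 3 against 3 mice allow is 0.1, so no transporter could pass 0.05 with this test. The 10 differences were all below 0, from -0.16 for Slc22a12 to -2.51 for Slc22a29 on the log2 scale, and a p that misses the threshold does not show that the transporters fell only as far as the markers.

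In the summed count Pck1 and Slc27a2 weigh most, so the mean log2 CPM of the 12 markers was used as a further reference, chosen after the data were seen. The differences then ran from -0.23 (Slc22a12) to -0.79 (Slco1a1), with -2.59 for Slc22a29, and the same 9 transporters overlapped. Counted marker by marker, the mean log2 CPM of Slc22a12 fell further than that of 8 of the 12 markers, and that of Slc22a7, Slc22a8, Slc22a19 and Slco1a1 further than that of 11.

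Of 60 further genes of organic anion and urate handling in 6 lists 51 were tested. Of these, 14 were called lower and 0 higher, with a median log2 fold change of -0.45. Over all genes tested 7.28% were called lower and 4.74% higher, shares that also stand beside each list below. OAT1 and OAT3 take up anions in exchange for dicarboxylates that Slc13a3, the sodium-dicarboxylate carrier, returns to the cell. Of the 7 genes in the list of carriers that load this exchange, 5 were called lower.

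Slc13a3 was at 545, 310.02 and 455 CPM in WT mice and 108, 82.5 and 198 CPM in Trpm2-/- mice, a log2 fold change of -1.75 (SE 0.321, edgeR adjusted p of 0.00896). Slc13a2, the luminal dicarboxylate carrier, fell by 2.26 on the log2 scale. The monocarboxylate carriers Slc5a8 and Slc5a12 fell by 1.79 and 1.23. The sulfate carrier Slc13a1 (-0.63, edgeR adjusted p of 0.0588) did not pass the test.

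Of the 7 genes of luminal exit 1 was called lower, the phosphate and urate carrier Slc17a1 (-0.94, edgeR adjusted p of 0.0146). The efflux pumps Abcc2 (-0.54, 0.0770), Abcg2 (-0.50, 0.0947) and Abcc4 (0.65, 0.120) were not called. Of the 9 urate genes outside the 10, Slc17a1 and the monocarboxylate carrier Slc16a9 (-0.96, edgeR adjusted p of 0.0170) were lower. Slc2a9, the urate exit route at the blood side, was at 29.9 ± 4.85 CPM in WT mice and 42.2 ± 10.3 CPM in Trpm2-/- mice (0.50, edgeR adjusted p of 0.128).

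Within the families, 4 of 12 further SLC22 genes tested were lower. Among them were the organic cation transporters Slc22a2 (-1.52) and Slc22a3 (-1.85), and Slc22a18 (-1.58), with edgeR adjusted p of 0.00191 to 0.00995. Slc22a2 encodes OCT2, known for the uptake of cisplatin into the tubule cell, and was at 188, 188 and 239 CPM in WT mice and 55.5, 64.9 and 93.6 CPM in Trpm2-/- mice. The carnitine carrier Slc22a5 was at 169.8 ± 3.58 CPM and 162 ± 24.9 CPM (-0.07, edgeR adjusted p of 0.802).

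Of 8 further SLCO genes tested 2 were lower, Slco1a6 (-1.02, edgeR adjusted p of 0.0142) and Slco1a4 (edgeR adjusted p of 0.0101). Slco1a4 had 81 counts in all WT mice and 10 in all Trpm2-/- mice, and passed the filter on low counts through its WT libraries. The ratio of these summed counts, corrected for library size, was 7.93. Its exact 95% interval was 4.10 to 17.2, which covers counting error only. Of 13 regulators and scaffold proteins tested 1 was lower, the scaffold Slc9a3r1 (-0.50, edgeR adjusted p of 0.0346). This count is near the 7.28% of all genes tested that were called lower. Pdzk1, the scaffold that binds URAT1 at the luminal membrane, was at 176 ± 15.8 CPM and 96.6 ± 37.3 CPM and missed the threshold (-0.87, edgeR adjusted p of 0.0551).

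**Figure D4:**
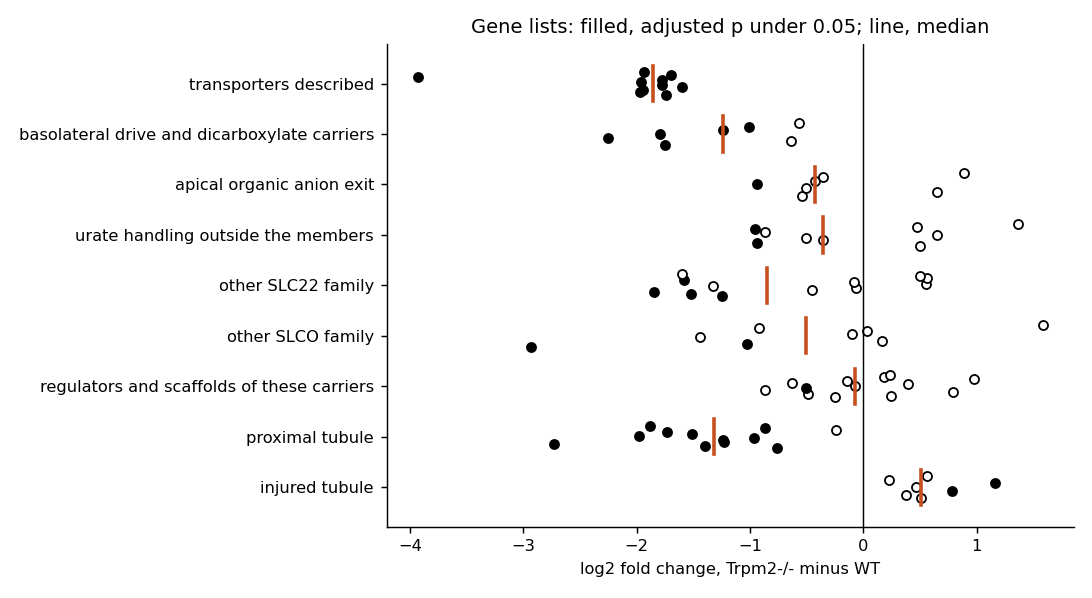
Log2 fold change, Trpm2-/- minus WT, of the 10 transporters and of each tested gene in the 6 lists of organic anion and urate handling, with the proximal tubule and injured tubule markers. Each circle is 1 gene, filled circles passed an adjusted p under 0.05 in the edgeR quasi-likelihood test and the orange line is the list's median. The 10 transporters lie together near their median of -1.86 apart from Slc22a29, while the luminal exit and urate lists spread on both sides of 0.

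The genes whose profiles over the 6 libraries were most like those of 3 transporters were taken from 13007 genes, by the root mean square difference between log2 CPM values centred on each gene's mean. For Slc22a12 the nearest was Reep6 at 0.0847, at 174, 158 and 237 CPM in WT mice and 46.9, 54.2 and 93.5 CPM in Trpm2-/- mice, followed by Afm and Hsd3b2. For Slc22a6 they were Slc51a at 0.171, Rarres2 and Aspa. For Slco1a1 they were Ugt2b38 at 0.161, Ffar4 and Ugt2b37; the Ugt2b genes encode conjugating enzymes. Among the 10 themselves the closest pair was Slc22a7 and Slc22a19 at 0.219, followed by Slc22a6 and Slc22a28 at 0.279.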

How the data were processed

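Kidney RNA-sequencing libraries of 3 WT and 3 Trpm2-/- mice were used, each taken as 1 mouse. The authors counted reads per gene and deposited these raw counts, and also deposited FPKM values made from them; per the submitters' processing notes HISAT2, StringTie and mm9 were named, without versions. Gene positions in the deposited tables equal those of GENCODE M21 for 98.3% of genes, so coordinates are given on GRCm38.

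In R 4.3.3, counts were filtered with filterByExpr, scaled by TMM and tested for genotype with edgeR 4.0.16 (quasi-likelihood test, two-sided), with Benjamini-Hochberg adjustment over 15816 genes. Standard errors derive from the F value. Alternatives used DESeq2 1.42.0, limma 3.58.1 on voom values or on log2(FPKM + 1) and log2(FPKM + 0.1) for genes with a mean of at least 1 FPKM, other scalings and filters, a replicate block, and each mouse left out. Tests were checked on simulated counts in which every gene had the common dispersion, 0.0445. Single genes can vary more than that, so the check does not cover their spread. No recovery of changed genes was required of the replicate block fit. Exact permutation tests were used on values per marker count. Shared windows were counted in GENCODE transcripts.

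The members and lists were chosen with earlier results of these data known. Named genes are the 10 transporters, list genes at an adjusted p under 0.05, list genes needed to show what did not pass, markers, and the 3 nearest profiles with at least 1 CPM and no Gm or Rik name. Nrxn2, Slc22a13b-ps and Pck1 were named after their values were seen. A few list genes are not reported here. P-values measure the spread between these mice.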

Additional observations from a re-analysis of the deposited data

How the results depend on the processing

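All 10 transporters kept their direction in each alternative fitted. Slc22a6, Slc22a7, Slc22a12, Slc22a13, Slc22a19 and Slc22a29 were called in each; Slc22a29 had no value in the 2 limma fits on FPKM, where it failed the filter, and neither had the summed chromosome 19 cluster. The number of transporters called lower was 8 to 10 under other scalings, filters and tools. With 1 mouse left out it was 6 to 10, with the lowest number, 6, without WT replicate 3. Without the filter on low counts, Slc22a8 had an edgeR adjusted p of 8.34e-28 at a log2 fold change of -1.96. The main fit gave 0.0469 at -1.95. So small a value is not plausible with 3 mice per genotype, so the unfiltered fit is no support for the calls. In the fits across all genes, all transporters tested passed the study's threshold (9 on FPKM, otherwise 10). The values moved most when set against the proximal tubule markers: per summed marker count, the log2 differences of 9 transporters were -0.72 to -0.16, short of an absolute value of 1, and that of Slc22a29 was -2.51; against the mean log2 CPM of the markers, a reference chosen after seeing the data, they were -0.79 to -0.23 and -2.59. The 14 further organic anion and urate genes became 30 without the filter on low counts (25 lower, 5 higher), 25 in DESeq2 (23 lower, 2 higher) and 8 to 17 with 1 mouse left out, of which 9 without WT replicate 2 and 8 without WT replicate 3; the cause was not tested. The number of all genes called lower fell from 1152 to 521 and 470 in the last 2 fits. The summed cluster had log2 fold changes of -2.27 to -1.59 with 1 mouse left out.

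Numbers 1 and 2 occur in both genotypes, but the samples are different mice, and the main fit did not pair them. Their deviations from the genotype means correlated at 0.064 and -0.012, and pairs with different numbers at -0.248 to 0.217. With so few mice these correlations cannot decide whether equal numbers mark a shared day or batch. With the replicate number as a block 10 transporters and 12 further genes (11 lower, 1 higher) were called, and the summed cluster was at -2.22. Over all genes 661 were lower and 341 higher, against 1152 and 750. In this fit WT replicate 3 and Trpm2-/- replicate 4 each stand alone in their block. The genotype difference then rests on replicates 1 and 2 only, so this fit is no independent support for the calls.

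Low counts limit Slc22a29, Slc22a28, Slc22a26 and Slco1a4, among others, and shared reads limit Slc22a28 and Slc22a30. The 3 mice per genotype came from separate sources, and no kidney without cisplatin was analysed. Genotype, mouse origin and any loss of tubule cells therefore cannot be told apart. Cell loss itself was not measured.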

Other observations

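Several carriers of the mouse proximal tubule differ between the sexes, and Slco1a1 is known to be higher in male kidneys. Ddx3y on the Y chromosome had 754 to 1042 counts per library and Xist on the X chromosome 0 to 20, which fits male mice in both genotypes. Of 7 genes with male-biased expression in the proximal tubule 4 were lower in Trpm2-/- kidneys. The share over all genes tested was 7.28%, but 11 of the 12 proximal tubule markers were lower too. The same 7.28% stands beside the further list counts in this paragraph. The 4 genes were Kap (log2 fold change -1.62), Nudt19 (-1.56), Acsm3 (-1.25) and Cyp4b1 (-0.77). Cyp7b1 (-1.24, edgeR adjusted p of 0.0505) and Cyp2j13 (-0.13, edgeR adjusted p of 0.586) were not called. Odc1 was at 504 ± 45.6 CPM in WT mice and 510.4 ± 38.6 CPM in Trpm2-/- mice. Of 3 tested genes with female-biased expression Cyp4a14 was also lower (-1.95), so that both lists held genes that fell. Markers of the first 2 segments of the proximal tubule were called lower for 4 of 5 genes and markers of the third segment for 3 of 5. In the third segment, Mep1b (-2.68) and Slc7a13 (-1.78) fell, whereas Slc6a18 was at 1766 ± 147 CPM and 1476 ± 464 CPM (edgeR adjusted p of 0.488). Umod, made by the thick ascending limb, was lower (-1.97), the only called gene of the 5 in its list. Of 4 tested markers of collecting duct principal cells, Aqp2 (-1.02) and Aqp3 (-0.47) were lower as well.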
